A study of Gallus gallus with 18 samples.

Results

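HBZ and TMEM8A are a globin gene and a non-globin gene that share the chicken alpha-globin gene domain (AgGD), and their reads were followed here across 3 cell types. Both were set by identifier (ENSGALG00000023740 for HBZ and ENSGALG00000026188 for TMEM8A), with earlier results of these data known. They are 2 of the 17108 Ensembl genes counted. The study had already reported TMEM8A among the most raised non-globin genes of its region in differentiated HD3 cells. Total RNA depleted of ribosomal RNA had been sequenced from HD3dif, HD3pr and DT40 cells, with 2 libraries described as independent biological replicates for each. HD3dif cells are HD3 cells that had been kept for 14 h at 42 °C in medium with 20 µM iso-H-7, a protein kinase inhibitor, and 10 mM HEPES to bring about terminal erythroid differentiation. HD3pr cells are proliferating HD3 cells grown at 37 °C without these agents. HD3 is a chicken erythroblast line transformed by avian erythroblastosis virus, and a single clone of it (A6 of LSCC) was used. DT40, also grown at 37 °C, is a chicken B lymphoid line from a bursal lymphoma induced by avian leukosis virus in a Hyline SC bird. Differentiated HD3 cells thus differ from proliferating ones in the inhibitor, the buffer, the temperature and the gas phase (air in place of added CO2) together, and the parts these play cannot be told apart.

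HBZ encodes the embryonic alpha-type globin chain of birds, called π, the first alpha-type globin made in the primitive red cells of the embryo. TMEM8A encodes a membrane protein with several transmembrane segments, whose human counterpart (PGAP6) is a phospholipase that acts on proteins held in the membrane by a GPI anchor. In the chicken genome both genes lie on chromosome 14, and in RefSeq (GRCg7b) the order there is SNRNP25, RHBDF1, MPG, NPRL3, HBZ, HBAD, HBA1, TMEM8A, MRPL28, AXIN1, PDIA2 and ARHGDIG. HBZ is therefore the first globin gene after NPRL3, and TMEM8A follows the last one, HBA1.

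The reads on genes numbered 20100063 and 24054973 in HD3dif, between 29784807 and 30576844 in HD3pr, and 28726204 and 33433279 in DT40. They made up 33% to 35.8% of all reads in HD3dif, 44.4% to 46.2% in HD3pr and 53.8% to 55.4% in DT40, so the share of reads on genes moved with the cell type. All reads means here the reads entered in the counting, on genes or not. Unaligned reads are not among them. A level is given below as CPM, counts per 1e+06 reads on genes, with totals scaled by TMM factors. The counts of replicates differed by more than sampling of reads would give (chi-square per gene 8.80 in HD3dif, 4.46 in HD3pr and 14.2 in DT40, against about 1), so each library was kept as a replicate. Intervals on single libraries are exact 95% intervals and cover counting error only. In bulk RNA, a change in the share of cells that make a transcript and a change in the amount per cell cannot be told apart. The cell types could not be checked on panels of erythroid, B lymphoid, myeloid, thrombocyte or fibroblast markers, because of these only HBZ could be paired with an identifier.

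TMEM8A was read in every library, and its level was highest in HD3dif, intermediate in HD3pr and lowest in DT40. It had 18760 and 23404 reads in HD3dif, 2455 and 2405 in HD3pr, and 307 and 378 in DT40. As a level, this was 855 CPM (interval 843 to 867) and 898 CPM (887 to 910) in HD3dif, 87.7 CPM (84.3 to 91.3) and 88.2 CPM (84.7 to 91.8) in HD3pr, and 10.7 CPM (9.55 to 12.0) and 11.2 CPM (10.1 to 12.4) in DT40. The 3 cell types did not overlap. With 2 libraries each this is a weak mark, and the share of all genes without overlap was not counted. In the study's region, all 27 genes that could be named here also had no overlap between HD3dif and HD3pr or between HD3dif and DT40. Between HD3pr and DT40 some of them overlapped, NPRL3 among them. Each cell type lay about as far from the next on a log scale. Replicates lay close together: CPM in replicate 1 was 0.952 times that in replicate 2 in HD3dif, 0.995 times in HD3pr and 0.959 times in DT40. In HD3dif this small gap was still larger than counting error, since replicate 1 held 44.5% of the TMEM8A reads of both libraries (44.0% to 45.0%) where the library sizes alone would give 45.7%.

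HBZ was read in the erythroid libraries, and in neither DT40 library. It had 1000 and 1163 reads in HD3dif, 180 and 133 in HD3pr, and 0 and 0 in DT40. The levels were 45.6 CPM (42.8 to 48.5) and 44.6 CPM (42.1 to 47.3) in HD3dif and 6.43 CPM (5.53 to 7.44) and 4.88 CPM (4.08 to 5.78) in HD3pr. In the DT40 libraries 3 reads, used below in place of 0, would be 0.105 and 0.0886 CPM. The exact intervals of the 0 counts reach 0.129 and 0.109 CPM. Again the cell types did not overlap, the same weak mark as for TMEM8A, with HD3dif above HD3pr and HD3pr above the intervals in DT40. HBZ was steady between the HD3dif libraries, where replicate 1 held 46.2% of the reads (44.1% to 48.4%, with 45.7% given by library size). In HD3pr replicate 1 held 57.5% (51.8% to 63.1%, with 50.6% given by library size), a ratio of 1.32 between the CPM of the replicates. These 2 libraries thus differed in HBZ by more than counting error, while the interval for TMEM8A held the expected share (50.5%, 49.1% to 51.9%). Over all genes the HD3pr replicates also differed beyond counting error (chi-square per gene 4.46, against about 1).

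**Figure D1:**
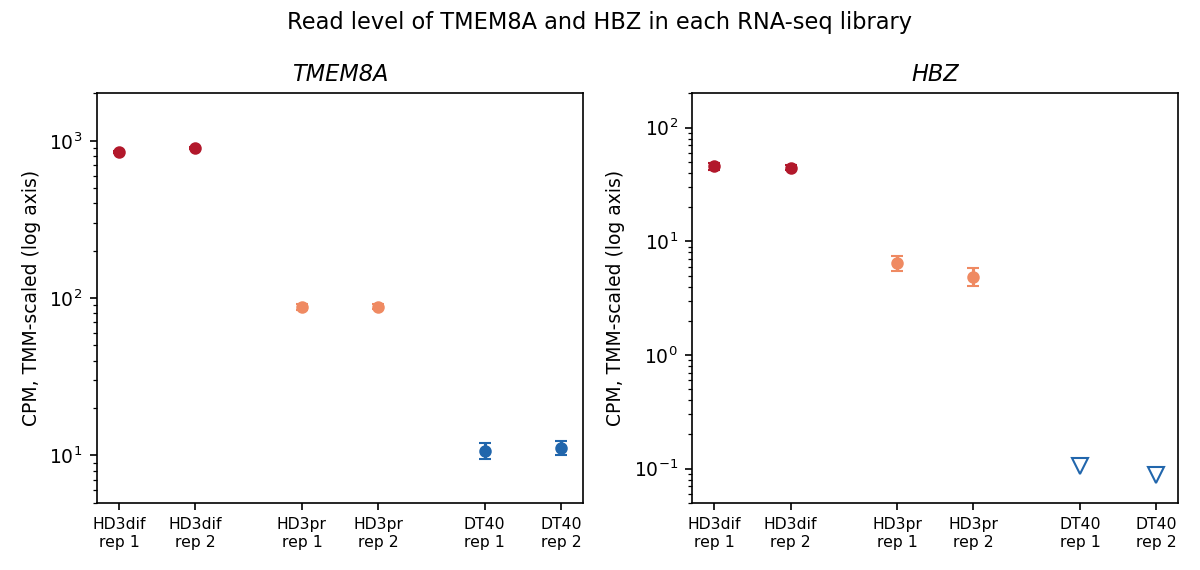
Levels of TMEM8A (left) and HBZ (right) in the 6 libraries, as TMM-scaled CPM on log axes whose ranges differ. Points are single libraries, bars are exact 95% counting intervals, and open triangles mark the level of 3 reads in the DT40 libraries, where HBZ had 0. TMEM8A stands at 855 and 898 CPM in HD3dif, 87.7 and 88.2 in HD3pr, and 10.7 and 11.2 in DT40. HBZ stands at 45.6 and 44.6 CPM in HD3dif and at 6.43 and 4.88 in HD3pr.

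The comparison of HD3dif with HD3pr asks what changed when the erythroblasts differentiated. Both genes rose. TMEM8A was 9.97-fold higher in HD3dif (log2 fold change 3.32, SE 0.05, adjusted p = 3.4e-21) and HBZ was 7.96-fold higher (log2 fold change 2.99, SE 0.13, adjusted p = 5.6e-14), by edgeR's quasi-likelihood test with Benjamini-Hochberg adjustment over 10898 genes. A call of higher or lower required an adjusted p under 1e-07 together with a log2 fold change of more than 0.6 in size. By this rule 1306 genes, or 12.0% of those tested, were higher in HD3dif than in HD3pr, and 2030, or 18.6%, were lower. The median log2 fold change over all tested genes was 0.03. TMEM8A had the 428th largest rise among the 10898 genes and HBZ the 550th. The rise was also seen with all reads of a library, on genes or not, as its size: per 1e+06 of these, TMEM8A had 334 and 321 in HD3dif against 35.7 and 37.3 in HD3pr, and HBZ had 17.8 and 16.0 in HD3dif against 2.62 and 2.06 in HD3pr. On that scale the log2 fold changes were 3.17 for TMEM8A and 2.85 for HBZ, with a median of -0.12 over all genes. With gene read totals in place of TMM they were 3.57 and 3.24, with a median of 0.28.

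The comparisons with DT40 set the erythroid cells against lymphoid ones. TMEM8A was 80.0-fold higher in HD3dif than in DT40 (log2 fold change 6.32, SE 0.06, adjusted p = 3.3e-25 by edgeR) and 8.03-fold higher in HD3pr than in DT40 (3.01, SE 0.06, adjusted p = 3.8e-20). The step of HD3pr over DT40 was thus of the same order as the 9.97-fold step of HD3dif over HD3pr, although these comparisons share the HD3pr libraries. With 3 reads put in each DT40 library in place of 0, HBZ was 467-fold higher in HD3dif and 58.5-fold higher in HD3pr than in DT40. The adjusted p values by edgeR, 8.7e-18 and 8.9e-13, come from the fit to the counts themselves, with 0 in DT40. HBZ passed the filter on low reads only through the HD3 libraries, so that a difference from DT40 was built into its being tested. In HD3dif against DT40, 27.3% of tested genes were higher and 27.1% lower, and in HD3pr against DT40, 23.0% were higher and 18.3% lower. A call against DT40 was therefore common, and it was the size of the difference that placed TMEM8A 740th of 10898 for its rise in HD3dif over DT40 and 1221st in HD3pr over DT40. Reads outside genes were fewest in DT40, and per 1e+06 of all reads TMEM8A there had 5.74 and 6.27, which gives log2 fold changes of 5.77 for HD3dif and 2.60 for HD3pr over DT40.

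The place of a gene among all genes, ordered by reads, shows the same data without a second cell type to compare with. TMEM8A was at place 97 of the 14094 genes with at least 1 read in HD3dif replicate 1 and at place 90 of 14244 in replicate 2. In HD3pr it was at places 2790 of 12768 and 2795 of 12708, and in DT40 at places 6854 of 12768 and 6801 of 12905. By mean CPM, 0.639% of the genes read stood above it in HD3dif, 21.0% in HD3pr and 51.0% in DT40. TMEM8A thus lay near the middle of the genes read in lymphoid cells and among the 95 most read genes in differentiated erythroid cells. Of those 95 genes, 9, TMEM8A included, were at or below the place of TMEM8A in DT40, and 2, TMEM8A included, were at or below its place in HD3pr. Both limits are the places of TMEM8A itself, so these counts do not measure how far other genes moved.

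HBZ did not reach such a place. It was at places 4113 and 4148 in the HD3dif libraries, at 7726 and 8002 in the HD3pr libraries, and among the unread genes in DT40. By mean CPM, 28.0% of the genes read stood above it in HD3dif and 59.2% in HD3pr. Of the tested genes, 268 had no read in either DT40 library. They passed the filter through the HD3 libraries. Among these 268, 42 were higher in HD3dif than in HD3pr, where 12.0% of all tested genes were, and 17, HBZ included, had a mean CPM in HD3dif of at least that of HBZ. Places follow reads and not reads per length, so they compare a gene with itself across cell types and do not rank transcripts by number.

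**Figure D2:**
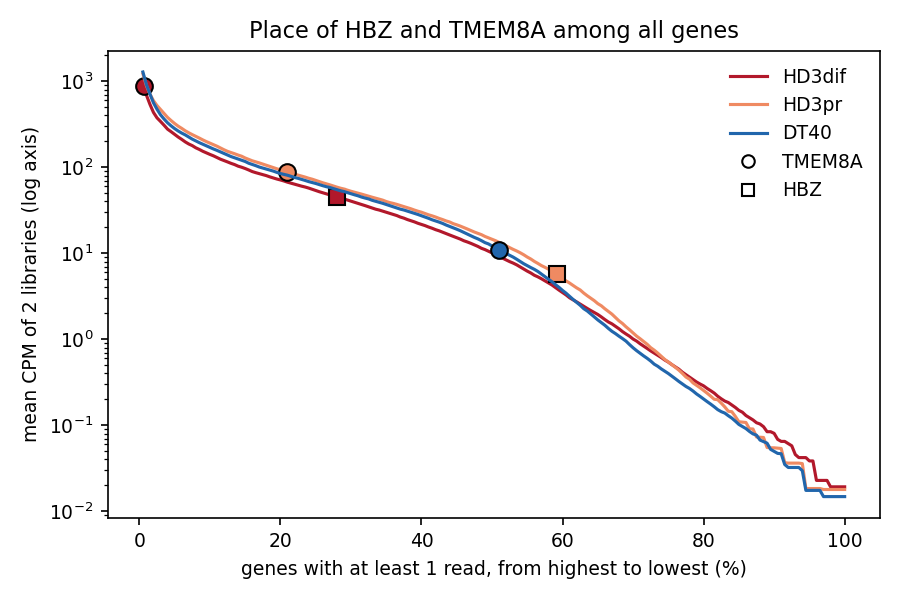
Mean CPM (log axis) of all genes with at least 1 read, ordered from the most to the least read (percent of genes), for HD3dif, HD3pr and DT40, with TMEM8A as circles and HBZ as squares in the colour of the cell type. The 3 curves lie close together, while TMEM8A moves along them, with 0.639%, 21.0% and 51.0% of genes above it in HD3dif, HD3pr and DT40, and HBZ has 28.0% and 59.2% above it in HD3dif and HD3pr. HBZ is not drawn for DT40, where it had no read.

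The ratio of HBZ to TMEM8A within a library does not depend on library size or scaling, and it shows whether the globin gene and its neighbour moved by the same factor. HBZ had 5.33 and 4.97 reads per 100 TMEM8A reads in HD3dif, 7.33 and 5.53 in HD3pr, and 0 in both DT40 libraries. As a share of the reads of both genes, HBZ made up 5.06% (4.76% to 5.38%) and 4.73% (4.47% to 5.01%) in HD3dif, and 6.83% (5.90% to 7.86%) and 5.24% (4.41% to 6.18%) in HD3pr. The interval of HD3pr replicate 1 lay above those of both HD3dif libraries and overlapped that of HD3pr replicate 2, which in turn overlapped both HD3dif libraries. The mean ratio was 5.15 ± 0.255 per 100 in HD3dif and 6.43 ± 1.27 per 100 in HD3pr (SD, n = 2 each). On the log2 scale the ratio was 0.31 lower in HD3dif (-4.28 ± 0.07 in HD3dif and -3.97 ± 0.29 in HD3pr, SD, n = 2 each). From these SDs, a difference between 1 library of each group has an SD of 0.296. The difference between means of 2 libraries has a smaller spread than that. An exact permutation test over libraries gave p = 0.33 (two-sided), which is the smallest value that 2 against 2 libraries allow, so this test could not pass a threshold of 0.05. Both HD3dif ratios lay below both HD3pr ratios, and the size of the difference moved with HD3pr replicate 1: without that library the log2 difference was -0.10, and without HD3pr replicate 2 it was -0.51.

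In DT40 the ratio was of another order. With 307 and 378 TMEM8A reads, a count of 0 for HBZ allows up to 0.977 and 0.794 HBZ reads per 100 TMEM8A reads, below every erythroid library. At the ratio of the erythroid cells, HBZ would have been visible at this depth. In the lymphoid line TMEM8A was therefore read without HBZ, whereas in both erythroid states the pair was read at 4.97 to 7.33 HBZ reads per 100. The ratio is one of reads. The lengths of the counted exons were not used here, so it does not give the number of HBZ transcripts per TMEM8A transcript.

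**Figure D3:**
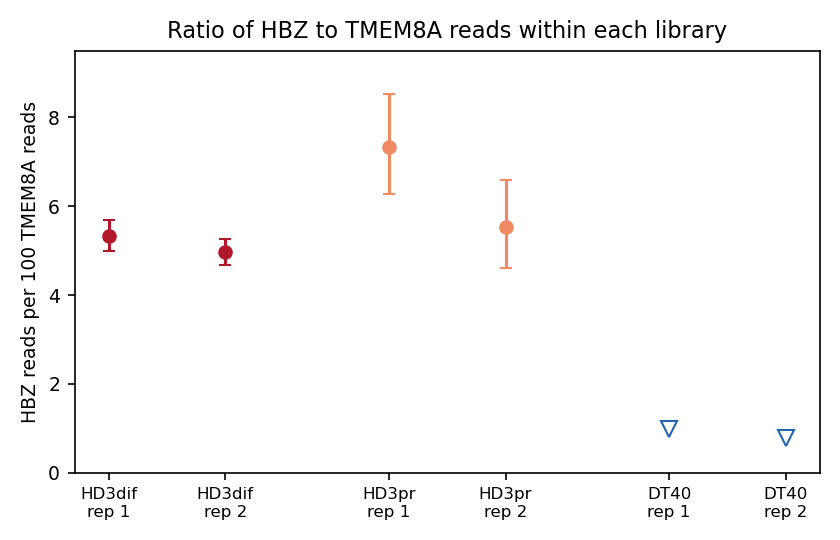
HBZ reads per 100 TMEM8A reads in each library of HD3dif, HD3pr and DT40. Points are libraries, bars are exact 95% counting intervals, and open triangles mark the ratio at 3 HBZ reads in DT40 (0.977 and 0.794), where the ratio itself was 0. The HD3dif libraries (5.33 and 4.97) overlap with HD3pr replicate 2 (5.53), and HD3pr replicate 1 is higher (7.33).

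Of 11 other genes listed as neighbours of the domain, 7 could be paired with an identifier, and all 7 passed the filter on low reads. Among those not paired was MRPL28, next to TMEM8A, which the study reported as downregulated in differentiated HD3 cells. The counts below leave it out. In HD3dif against HD3pr 3 of the 7 rose and 0 fell by edgeR, where 12.0% of all tested genes were higher and 18.6% lower, with a median log2 fold change of 0.75 against 0.03 over all tested genes. At an adjusted p under 0.05 by edgeR, 6 of the 7 were higher and 1 (ARHGDIG) was lower, where 4360 of the 10898 tested genes were higher and 4279 lower. At an unadjusted p under 0.05 the counts of the 7 were the same, and those over all genes were not taken. DESeq2 called 4 of the 7 higher and 0 lower, where it called 1754 higher and 2062 lower over all genes. The 3 that edgeR called higher were NPRL3, MPG and LUC7L. NPRL3, a subunit of the GATOR1 complex that restrains mTORC1, whose introns hold the major regulatory element of the alpha-globin genes in chicken and mammals, had 86.7 and 82.4 CPM in HD3dif against 16.9 and 16.9 CPM in HD3pr (log2 fold change 2.32, SE 0.09, adjusted p = 4.0e-15 by edgeR). MPG, a DNA glycosylase that removes alkylated bases, had 44.1 and 38.0 CPM in HD3dif against 11.0 and 9.83 CPM in HD3pr (1.98, SE 0.11, adjusted p = 1.7e-12). LUC7L, a splicing factor of the U1 particle, had 45.5 and 45.4 CPM in HD3dif against 26.9 and 27.1 CPM in HD3pr (0.75, SE 0.08, adjusted p = 1.9e-08). Libraries did not overlap for any of these 3 genes, a weak mark with 2 libraries per cell type. The same held for all 27 paired genes of the wider region that the study examined. Among them was C16orf72, at a log2 fold change of 0.07 (adjusted p = 0.404 by edgeR). NPRL3, MPG and LUC7L each rose by less than HBZ or TMEM8A did.

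The call of LUC7L was lost whichever HD3dif or HD3pr library was left out, which leaves 1 library in a group. Its log2 fold change then stayed between 0.74 and 0.82, so its size did not rest on a particular library. With all reads as library size it was smaller, 0.5997 (adjusted p = 1.5e-07 by edgeR), and LUC7L was not called. AXIN1, a scaffold of the complex that breaks down beta-catenin, missed the limit with a log2 fold change of 0.81 (adjusted p = 3.2e-06) and passed it without DT40 replicate 1 (0.82, adjusted p = 9.0e-08), with gene read totals (5.2e-08), with DESeq2 (2.3e-08), with no filter (2.5e-13) and with only the libraries of both cell types fitted (2.5e-08). The other values were 0.63 for RHBDF1, an inactive rhomboid protein, 0.47 for SNRNP25, a protein of the minor spliceosome, and -0.75 for ARHGDIG. Their adjusted p values were 1.8e-04, 0.0040 and 2.9e-04, short of the limit of 1e-07.

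Against DT40 the neighbours lay below the pair in both erythroid states, apart from ARHGDIG in HD3pr. In HD3pr over DT40, 1 of the 7 neighbours was higher (ARHGDIG, log2 fold change 4.29, SE 0.22), where 23.0% of all tested genes were, and their median log2 fold change was -0.07, against 0.08 over all genes. TMEM8A stood at 3.01 in this comparison, and HBZ at 5.87 with 3 reads put in place of 0 in DT40. AXIN1 stood at 1.05 (adjusted p = 2.8e-07 by edgeR), short of the limit. It was called higher by DESeq2 (adjusted p = 1.5e-09) and by edgeR with no filter (2.0e-17). At an adjusted p under 0.05 by edgeR, 3 of the 7 neighbours were higher and 2 lower, where 4855 and 4185 of all tested genes were. NPRL3, next to HBZ, had 16.9 and 16.9 CPM in HD3pr against 16.5 and 20.2 CPM in DT40, with overlapping libraries (log2 fold change -0.12, adjusted p = 0.245). MPG had 11.0 and 9.83 CPM in HD3pr against 15.4 and 13.2 CPM in DT40 (-0.45, adjusted p = 0.0014). The neighbours on the NPRL3 side therefore had no higher level in proliferating erythroblasts than in lymphoid cells, apart from RHBDF1 (0.79, adjusted p = 2.6e-05, short of the limit), whereas HBZ and TMEM8A did. In HD3dif over DT40, 5 of the 7 were higher, where 27.3% of all tested genes were, with a median of 1.52 against 0.04 over all genes. They were ARHGDIG (3.54), NPRL3 (2.2), AXIN1 (1.86), MPG (1.52) and RHBDF1 (1.42), all below TMEM8A at 6.32. RHBDF1 lost this call without HD3dif replicate 1 (adjusted p = 7.0e-07) or replicate 2 (9.9e-07).

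**Figure D4:**
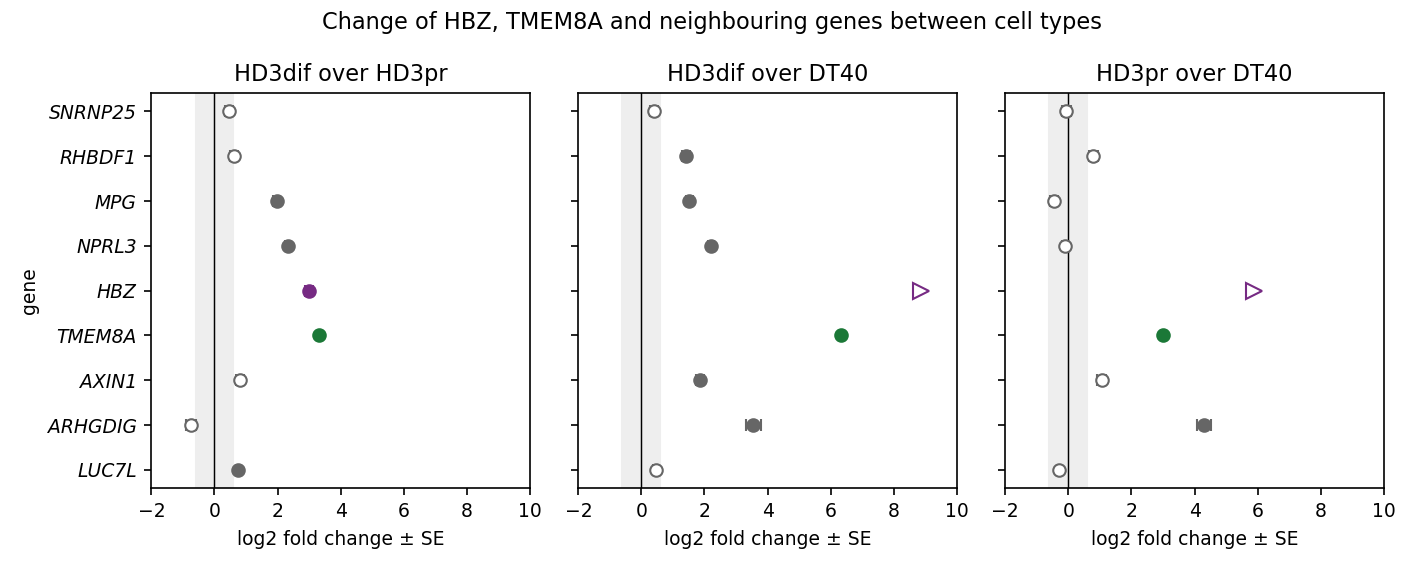
Log2 fold change with its SE for HBZ (purple), TMEM8A (green) and 7 neighbouring genes (grey), in chromosome order with LUC7L last, in HD3dif over HD3pr, HD3dif over DT40 and HD3pr over DT40. Filled points passed the call rule and open points did not. Open triangles show HBZ against DT40 with 3 reads put in place of 0 (8.87 and 5.87). The grey band spans the log2 fold limit of 0.6 on both sides of 0. TMEM8A and HBZ have the largest rises of the 9 genes in HD3dif over HD3pr (3.32 and 2.99), and with ARHGDIG they are the genes called in HD3pr over DT40.

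Within the wider region that the study had examined around the domain, 27 genes, the pair included, could be paired with an identifier. In HD3dif over HD3pr, 10 of them rose and 4 fell, where 12.0% of all tested genes were higher and 18.6% lower, with a median log2 fold change of 0.72. TMEM8A had the first place for its rise and HBZ the third. Between them came RBFOX1, an RNA-binding splicing regulator, which had 2.42 and 2.11 CPM in HD3dif against 0.322 and 0.147 CPM in HD3pr and missed the limit at these few reads (3.24, SE 0.48, adjusted p = 3.8e-06). By mean CPM, TMEM8A was the most read of the 27 in HD3dif, the sixth in HD3pr and the 18th in DT40, and HBZ was the 15th in HD3dif, the 23rd in HD3pr and the last in DT40.

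The genes whose pattern was nearest to each of the pair were found from log2 CPM over the 6 libraries, centred on each gene's mean, by root mean square distance (prior count 2). HBZ and TMEM8A lay 1.49 apart, with a Pearson correlation of 0.973 over 6 libraries that share 3 cell types. HBZ had no read in DT40, so its values there, and with them this distance, the correlation and the places that follow, depend on the prior count. They were not each other's nearest genes: of 10897 others, 406 were nearer to HBZ than TMEM8A was, and 1031 were nearer to TMEM8A than HBZ was. Within a distance of 0.5 there were 38 genes around TMEM8A and 13 around HBZ. The 10 genes nearest to TMEM8A had mean levels of 0 to 0.258 CPM in DT40, against 10.9 CPM for TMEM8A. Their distances therefore also depend on the prior count. The gene nearest to HBZ was ENSGALG00000006208, unnamed in the files, at a distance of 0.31, with a mean of 41.6 CPM in HD3dif, 7.73 in HD3pr and 0.0322 in DT40. That nearest to TMEM8A was ENSGALG00000015406, at 0.08, with 5.99 CPM in HD3dif, 0.544 in HD3pr and 0 in DT40, so that its likeness depends on the prior count.

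Among the 27 genes with a name, the 5 nearest to TMEM8A were USP7 (0.90), HBZ (1.49), RBFOX1 (1.66), ABAT (1.68) and ARHGDIG (1.72). The 5 nearest to HBZ were TMEM8A (1.49), USP7 (1.85), ARHGDIG (2.44), Ep300 (3.08) and ABAT (3.09). The row paired with USP7, a deubiquitinase, was thus on both lists, and it had a mean of 25.0 CPM in HD3dif, 10.6 in HD3pr and 0.828 in DT40. Its name rests on a match of read counts and is uncertain. ABAT, which breaks down the transmitter GABA, had 165 and 174 CPM in HD3dif, 43.0 and 44.2 in HD3pr, and 35.2 and 34.4 in DT40, so it rose on differentiation (log2 fold change 1.96, adjusted p = 4.3e-17 by edgeR) and was at 0.33 for HD3pr over DT40, not called. The named genes are few and come from this 1 region, so the lists do not give the most similar named genes of the genome.

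HBZ and TMEM8A are the only genes of the fixed globin and TMEM8 lists that could be paired. HBAD and HBA1, the definitive alpha-type globins between them, and MRPL28 beyond TMEM8A were not analysed here. Reads that fit more than 1 place made up 15.5% to 21.9% of the reads and were left out of the counts, and alpha-type globin genes resemble each other, so the level of HBZ is uncertain in this respect. Whether the counting used the strand is not given in the sources used here, so reads from an overlapping transcript on the other strand cannot be told apart from those of either gene. The study also reported intergenic transcription inside the globin cluster, in differentiated HD3 cells alone. Whether reads of such transcripts add to the HBZ count was not tested.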

How the data were processed

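RNA-seq reads were made with CASAVA 1.8.2 and aligned to galGal4 with TopHat2 2.0.12 and Bowtie2 2.2.1, using the annotation of Ensembl release 82, per the study's methods and the submitters' processing notes. The authors deposited unnormalized read counts per gene from HTSeq (version not given in the sources used here). Rows of reads without a gene were kept out of totals and tests. Groups followed the sample labels. Genes that exceeded 1 CPM in 2 or more of the 6 libraries were tested with edgeR 4.0.16 in R 4.3.3 (TMM factors, quasi-likelihood, all 6 libraries in 1 model, 3 residual degrees of freedom per gene), and p-values were Benjamini-Hochberg adjusted over all 10898 genes. The fit was checked on simulated counts. SE is the log2 fold change divided by the square root of F. A fold against 0 reads used 3 reads per library. Intervals are exact (Poisson or Clopper-Pearson), from R 4.3.3, and from scipy 1.17.1 for the HBZ share of the reads of both genes. Libraries held 20100063 to 33433279 gene reads.

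The files name genes by identifier. Of 35 symbols in the study's table of its region, 27 were paired with 1 identifier by matching that table's CPM, turned into reads with a total set from TMEM8A, to the counts. That table's values are not reported. Of 11 gene lists, 8 had no paired member (haem synthesis, erythroid transcription factors, red cell membrane, GPI anchor, B lymphoid, myeloid, thrombocyte and fibroblast lists). Named were both genes, the 5 named genes nearest to each, and from each list the most read and those with the largest called changes, together with the remaining neighbours and genes of the region named after their values were seen. The members and lists were chosen with earlier results of these data known.

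Alternatives were RLE factors, gene read totals, DESeq2 1.42.0, no filter, filterByExpr, a replicate block, a fit of only the libraries being compared, a call at adjusted p 0.05 with no fold limit, each library left out and, chosen after seeing the data, all reads as library size. Coverage tracks, 5C and C-TALE files were not used, since no galGal4 coordinates of the genes were at hand.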

Additional observations from a re-analysis of the deposited data

How the results depend on the processing

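All 6 comparisons of HBZ and TMEM8A kept their direction and their call under each of 15 alternatives (90 of 90). For HBZ against DT40 the direction could not change, since HBZ had no read in either DT40 library. The call there was also partly settled in advance, since HBZ passed the filter on low reads only through the HD3 libraries. The alternative with a looser adjusted p limit and no fold limit reused the main fit. It could therefore change no direction and lose no call. The count of 90 thus includes comparisons that could not fail. The log2 fold change in HD3dif over HD3pr ran between 2.81 and 3.24 for HBZ and between 3.17 and 3.57 for TMEM8A. For TMEM8A it ran between 5.77 and 6.44 in HD3dif over DT40 and between 2.60 and 3.03 in HD3pr over DT40. For HBZ, with 3 reads put in place of 0, these ranges were 8.32 to 8.98 and 5.46 to 6.06. The difference of the log2 ratio stayed between -0.51 and -0.10 when single libraries were left out.

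Counts over all genes moved more. Genes higher in HD3dif over HD3pr numbered 748 to 1615 with 1 library left out (851 without HD3dif replicate 1, 749 without HD3dif replicate 2, 786 without HD3pr replicate 1 and 748 without HD3pr replicate 2), 1968 with gene read totals and 2024 with no filter, and genes lower numbered 1273 (without HD3dif replicate 2) to 2139 with 1 library left out. Higher genes made up 58.5% of the calls with gene read totals and 39.1% with TMM. With all reads as library size, chosen after seeing the data, 4818 genes were lower in HD3dif and 3701 in HD3pr than in DT40. At an adjusted p below 0.05 with no fold limit, 4360 genes were higher and 4279 lower in HD3dif over HD3pr, 4995 and 4744 in HD3dif over DT40, and 4855 and 4185 in HD3pr over DT40. Of the 7 neighbours, that rule called 6 higher and 1 lower in HD3dif over HD3pr, and 3 higher and 2 lower in HD3pr over DT40. In the last comparison 2 were lower with all reads as library size, where 3701 of all genes were. With DESeq2 2 were higher, where 2465 of all genes were, and with no filter 3 were, where 2821 of all genes were. The cause of these moves was not tested.

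By Pearson correlation, 2 of the 5 genes named as nearest to HBZ and 1 of the 5 for TMEM8A were among the nearest, and with 1 library left out 4 for HBZ and 3 to 5 for TMEM8A. The place of TMEM8A was 90 in HD3dif replicate 2 and 2795 in HD3pr replicate 2 alone, against 95 and 2788 by means. Across the genes as a whole, same-numbered replicates did not deviate together (correlations of -0.03, -0.06 and 0.05 over 10898 genes). A batch that touched only some genes would not show in these correlations. With the replicate block the log2 fold changes in HD3dif over HD3pr were 3.00 for HBZ and 3.32 for TMEM8A, 1001 genes were higher and 1805 lower, and LUC7L lost its call (adjusted p = 3.3e-07). The ratio per coding length and the coverage at both genes were not run, for want of lengths and galGal4 coordinates. With 2 libraries per cell type, a library left alone is assumed to vary like the others.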
